A study of Mus musculus with 6 samples.

Results

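Transcripts were measured in fetal liver cells before and after culture with erythropoietin. The 10 protein-coding mouse genes described here encode proteins that restrain caspases or are otherwise linked to caspase cleavage. They were taken by symbol from the gene list of the study's count files: Xiap, Birc2, Birc3, Birc5 and Birc6, which encode inhibitor of apoptosis (IAP) proteins, Diablo, which encodes an IAP antagonist, Dffa and Dffb, which encode the inhibitor and the nuclease of the DNA fragmentation factor, and Acin1 and Parp1, which encode nuclear proteins that caspases cut. All 10 of 10 were found among 54232 gene IDs and all 10 passed the filter on low counts, as did 16150 genes in all.

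The cells came from livers of C57/B6 mouse embryos at E13.5 and were purified as negative for Ter-119, an antigen that appears as red cells mature. In the 3 day 0 libraries they received no treatment. In the 3 libraries of the 30 h group the culture medium held erythropoietin (EPO), on which red cell formation depends, and the solvent DMSO was added at 24 h for the last 6 h. Libraries with the caspase inhibitor Z-VAD-FMK, which the treatment protocol also names, were not analysed here. The labels call the cells of both groups progenitor cells. Time, culture, erythropoietin and DMSO changed together, so their parts cannot be told apart. Libraries held between 19241780 and 29949173 counts. Whether replicates stem from different embryos or cultures is not stated in the labels, so the p-values cover just the spread among these libraries, which may be technical.

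Caspases are proteases that cut after aspartate and dismantle a dying cell. IAP proteins bind caspases or their activating complexes, and most of them also attach ubiquitin to other proteins. Diablo leaves damaged mitochondria and displaces caspases from IAPs. Caspases release the DFFB nuclease from DFFA, after which it cuts DNA between nucleosomes. Maturing red cell precursors are known for caspase activity that does not end in death, and they condense their nucleus before expelling it. The counts measured only messenger RNA, not the proteins or their cleavage.

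The groups' cell type markers differed in the same libraries. The summed level of 8 maturing erythroblast genes lay between 1130 and 1284 CPM (the usual counts relative to library size, scaled by TMM, edgeR's trimmed mean of M-values) at day 0 and between 92059 and 132313 CPM at 30 h, and that of 5 progenitor genes between 805 and 856 CPM at day 0 and between 238 and 299 CPM at 30 h. All 8 maturing erythroblast genes were higher and all 5 progenitor genes lower. Hbb-bs alone made between 65692 and 106624 CPM of the erythroblast sum at 30 h. Hepatoblast markers fell in 8 of 8 cases, from a summed 13715 to 15551 CPM to 794 to 2295 CPM. Endothelial markers fell in 6 of 6 cases, from a summed 168 to 194 CPM to 30.3 to 38.4 CPM. Most of that 30 h sum was Pecam1, at a mean of 28.4 CPM. Kdr and Tek were at means of 3.62 and 2.86 CPM at 30 h, and Cdh5, Stab2 and Lyve1 at 0.216, 0.103 and 0.158 CPM. Mesenchymal markers fell in 6 of 6 cases, from a summed 1450 to 1856 CPM to 17.6 to 37.4 CPM. Macrophage markers summed to between 139 and 154 CPM and then to between 151 and 228 CPM, with 3 of 7 higher and 1 lower. Granulocyte markers summed to between 3136 and 3241 CPM and then to between 3637 and 5658 CPM, with 2 of 6 higher and 2 lower. Megakaryocyte markers summed to between 570 and 688 CPM and then to between 597 and 975 CPM, with 1 of 6 higher and 3 lower, and B lymphoid markers summed to between 25.3 and 27.1 CPM and then to between 12.0 and 15.7 CPM, with 4 of 6 lower. No listed marker was at 0 in all libraries of a group. The part of these cells in the values below was not tested, and in such bulk samples fewer cells of a type and less RNA per cell cannot be told apart.

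Of the 10 genes, 4 were higher and 4 lower at 30 h in edgeR's quasi-likelihood test at an adjusted p below 0.05. Birc2, Birc5, Diablo and Xiap were higher, Birc6, Dffa, Dffb and Parp1 were lower, and Birc3 and Acin1 did not pass. Among all genes tested 74.5% passed, 34.4% higher and 40.1% lower, so a count of 8 of 10 is near the background. The 2 groups did not overlap for the same 8 genes, against 79.7% of all genes. Called and changed by at least 2-fold were 4 of the 10, with Birc2, Birc5 and Diablo higher and Parp1 lower, against 48.8% of all genes (20.6% higher and 28.2% lower). The median log2 change of the 10 genes was 0.27, beside -0.09 over all tested genes. The calls of Birc2, Birc5, Diablo, Dffb and Parp1 held in 16 of 16 alternative fits, while those of Xiap, Birc6 and Dffa did not.

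**Figure D1:**
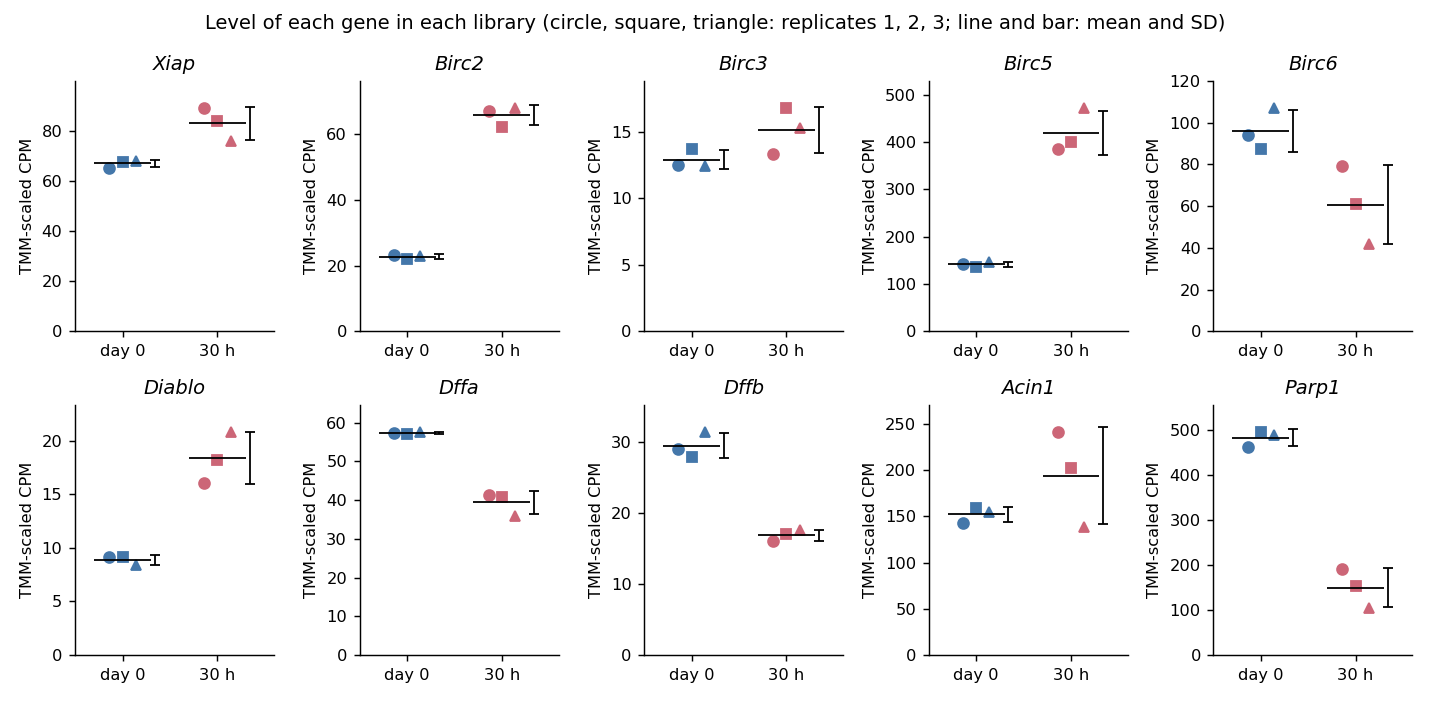
TMM-scaled CPM of each of the 10 genes in the 3 day 0 and 3 30 h libraries; symbols mark the replicate, lines the mean and bars the SD, and each vertical axis starts at 0. The groups are apart for 8 genes and overlap for Birc3 and Acin1, and the 30 h libraries spread most for Birc6, Acin1 and Parp1.

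Promoter sequence is shown for 5 genes: the 3 that rose most and, of those that fell, Parp1 and Dffa, for the cleavage targets and the fragmentation factor. The window of Dffb, which fell further than Dffa, is not shown. Each line gives the 250 bases before the start of the RefSeq transcript, in the direction of transcription, in build GRCm38.p6. They lie at chr11:117848987-117849236 on the plus strand for Birc5, chr9:7837058-7837307 on the minus strand for Birc2, chr5:123524165-123524414 on the minus strand for Diablo, chr1:180568641-180568890 on the plus strand for Parp1 and chr4:149103892-149104141 on the plus strand for Dffa. Capitals mark GC boxes (GGGCGG) and CCAAT boxes (CCAAT), on either strand.
Birc5: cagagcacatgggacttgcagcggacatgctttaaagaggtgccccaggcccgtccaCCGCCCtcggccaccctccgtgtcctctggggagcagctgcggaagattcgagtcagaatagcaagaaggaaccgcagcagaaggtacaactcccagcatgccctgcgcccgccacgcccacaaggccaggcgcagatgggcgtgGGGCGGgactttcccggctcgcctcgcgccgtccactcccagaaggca
Birc2: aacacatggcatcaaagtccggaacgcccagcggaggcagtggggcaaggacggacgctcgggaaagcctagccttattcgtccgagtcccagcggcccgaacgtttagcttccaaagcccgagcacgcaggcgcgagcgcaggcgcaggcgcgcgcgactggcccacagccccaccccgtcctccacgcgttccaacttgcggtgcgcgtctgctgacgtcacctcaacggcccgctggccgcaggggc
Diablo: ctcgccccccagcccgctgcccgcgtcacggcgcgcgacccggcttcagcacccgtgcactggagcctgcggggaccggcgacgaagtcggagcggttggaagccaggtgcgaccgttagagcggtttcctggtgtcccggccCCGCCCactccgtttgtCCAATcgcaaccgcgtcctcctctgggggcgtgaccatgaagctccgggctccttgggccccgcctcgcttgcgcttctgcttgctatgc
Parp1: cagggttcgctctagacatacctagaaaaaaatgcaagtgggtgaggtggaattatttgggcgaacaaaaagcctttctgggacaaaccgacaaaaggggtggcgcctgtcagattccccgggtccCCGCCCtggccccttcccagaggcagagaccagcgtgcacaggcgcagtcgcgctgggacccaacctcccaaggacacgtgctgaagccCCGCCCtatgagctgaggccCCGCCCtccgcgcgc
Dffa: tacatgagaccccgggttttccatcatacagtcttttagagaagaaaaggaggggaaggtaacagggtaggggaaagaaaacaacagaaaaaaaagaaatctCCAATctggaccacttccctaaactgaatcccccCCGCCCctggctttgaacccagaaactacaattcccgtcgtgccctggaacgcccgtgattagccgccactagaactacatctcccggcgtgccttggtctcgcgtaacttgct
GC boxes stood in all of these except that of Birc2, whose second RefSeq window held 2, with 3 in Parp1, 2 in Birc5 and 1 each in Diablo and Dffa. Over the 16 windows of all 10 genes, 9 windows of 8 genes held a GC box, beside 32.7% of 32817 mouse windows of the same length. Genes with several windows count more than once in both, windows of Acin1 overlap, and enrichment was not tested. A CCAAT box stood in the windows of Diablo and Dffa, and 33.8% of all windows held one. GATA motifs, spelled either AGATAA or else TGATAA or else AGATAG or else TGATAG and sought on both strands, were found in windows of 3 genes, namely Birc3, Dffb and 1 of the 3 windows of Xiap, and in 26.6% of all windows. A cell cycle homology element (TTTGAA or TTCGAA on either strand) was found in Dffa and 1 window of Xiap, beside 17.1% of all windows, and an E2F motif (TTTCCCGC, TTTGGCGC, TTTCGCGC or TTTGCCGC on either strand) in none of the 16, beside 1.86%. A CACCC box (CCACCC on either strand) was found in 6 genes and in 28.1% of all windows. The degenerate NF-kappaB motif, also searched on both strands, was found only in Birc5 among the 16 windows, where it overlapped a GC box, and in 7.25% of all windows. Letters that match a motif describe the sequence and show no binding.

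Birc5 and Birc2 were the IAP genes that rose most. Birc5 encodes survivin, a small IAP that works mainly in cell division, in the chromosomal passenger complex (chromosome 11, 117849251 to 117855743, plus strand; coordinates of genes here are from GENCODE M21 on GRCm38, the assembly of mm10). It stood at 142, 136 and 147 CPM in day 0 replicates 1, 2 and 3 and at 385, 400 and 472 CPM in 30 h replicates 1, 2 and 3. Every 30 h library was above every day 0 library, and the level rose 2.96-fold (log2 change 1.57 ± 0.11 SE, edgeR adjusted p = 8.41e-06). Birc2 encodes a ubiquitin ligase of tumour necrosis factor receptor complexes (chromosome 9, 7818227 to 7837064, minus strand). Its level was 23.3, 21.9 and 22.8 CPM at day 0 and 66.9, 62.3 and 68.0 CPM at 30 h. The groups were far apart and the 30 h libraries close together, with a rise of 2.90-fold (log2 change 1.54 ± 0.09 SE, edgeR adjusted p = 4.26e-06).

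Birc3, the tandem neighbour and close relative of Birc2 (chromosome 9, 7848699 to 7873186, minus strand), did not pass the test. It was at 12.5, 13.7 and 12.4 CPM at day 0 and at 13.4, 16.8 and 15.3 CPM at 30 h, so that the lowest 30 h library lay within the day 0 range. The log2 change was 0.23 with a 95% interval from -0.06 to 0.52 (edgeR adjusted p = 0.126). Birc3 passed as higher without 30 h replicate 1, at 0.37 (adjusted p = 0.0146), and once each library's GC trend was removed, at 0.39 (adjusted p = 0.0151), while scaling by library totals only put it at -0.26. Relative to the median of all genes, -0.09 with TMM and -0.58 with totals only, Birc3 was at 0.32 in either scaling. The ratio of Birc2 to Birc3 counts, which no library scaling can change, was 1.86, 1.59 and 1.83 at day 0 and 4.996, 3.70 and 4.44 at 30 h. It was higher in every 30 h library, by 2.47-fold on the mean log2 scale, and the exact permutation test (two-sided) gave p = 0.1, which is the lowest that groups of 3 can reach.

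Xiap, the IAP that blocks the active site of effector caspases (chromosome X, 42059679 to 42109656, plus strand), was at 65.3, 67.6 and 68.1 CPM at day 0 and at 89.2, 84.0 and 76.1 CPM at 30 h. The groups did not overlap and the level was 1.24-fold higher (log2 change 0.31 ± 0.10 SE, edgeR adjusted p = 0.0194). This call was lost with upper-quartile scaling (adjusted p = 0.0834), with no filter on low counts (adjusted p = 0.165) and when any 1 day 0 library was left out (adjusted p = 0.103, 0.0793 and 0.0740 for replicates 1, 2 and 3) or 30 h replicate 2 (adjusted p = 0.0673). The direction turned with scaling by library totals only (log2 change -0.18) and with the GC trend removed (log2 change -0.09), and of the 10 genes Xiap had the transcript of lowest GC content, 36.8%. Scaling by totals moved the median of all genes from -0.09 to -0.58, and relative to that median Xiap was at 0.40 in either scaling. With the GC trend removed the median was 0.18, and Xiap was at -0.27 relative to it.

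Birc6 encodes a very large IAP that is itself a ubiquitin-conjugating enzyme (chromosome 17, 74528295 to 74703356, plus strand). It was at 93.9, 87.3 and 107 CPM at day 0 and at 79.5, 61.0 and 41.8 CPM at 30 h. All 30 h libraries were below all day 0 libraries, but replicate 1 lay close to the day 0 range and replicate 3 far below it. The level was 1.58-fold lower (log2 change -0.66 ± 0.22 SE, edgeR adjusted p = 0.0235). The call was lost without day 0 replicate 3 (adjusted p = 0.0756), without 30 h replicate 2 (adjusted p = 0.0647) and after removal of the GC trend (adjusted p = 0.0599), and without 30 h replicate 3 the log2 change was -0.45 (adjusted p = 0.0111).

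Diablo encodes the mitochondrial IAP antagonist also called Smac (chromosome 5, 123509765 to 123524176, minus strand). It was the member of lowest level per length at day 0, and stood at 9.13, 9.12 and 8.35 CPM, then at 16.0, 18.2 and 20.8 CPM at 30 h. The groups were well apart and the level was 2.07-fold higher (log2 change 1.05 ± 0.13 SE, edgeR adjusted p = 0.000172). Per-length values of Diablo are uncertain, since 21.5% of its exon bases were shared with B3gnt4 on the opposite strand and 19.4% with Gm49027 on the same strand, genes with at most 9 counts in any library. The ratio of Diablo to Xiap counts was 0.140, 0.135 and 0.123 at day 0 and 0.180, 0.217 and 0.274 at 30 h, again without overlap (1.66-fold higher, exact permutation p = 0.1, two-sided). This ratio was not corrected for the GC trend. With that trend removed the log2 changes of Diablo and Xiap were 1.43 and -0.09, against 1.05 and 0.31 without the correction.

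Both subunits of the DNA fragmentation factor had lower transcript levels. Dffa, whose product folds and restrains the nuclease (chromosome 4, 149104146 to 149120647, plus strand), was at 57.4, 57.0 and 57.7 CPM at day 0 and at 41.4, 40.8 and 36.0 CPM at 30 h, 1.45-fold lower (log2 change -0.54 ± 0.10 SE, edgeR adjusted p = 0.00117). The day 0 libraries were almost equal and every 30 h library lay below them, but the call was lost with the GC trend removed (log2 change -0.12, adjusted p = 0.328). Dffb, the nuclease gene (chromosome 4, 153964449 to 153975126, minus strand), was at 29.1, 27.9 and 31.5 CPM at day 0 and at 16.0, 17.0 and 17.6 CPM at 30 h. It was 1.75-fold lower with no overlap (log2 change -0.81 ± 0.10 SE, edgeR adjusted p = 0.000187), and its log2 change was -0.42 (adjusted p = 0.0096) with the GC trend removed. There were fewer Dffb than Dffa counts in every library, namely 0.507, 0.490 and 0.545 per Dffa count in the day 0 libraries and 0.387, 0.416 and 0.488 in the 30 h libraries. This proportion was lower in each 30 h library, by 1.20-fold on the mean log2 scale (exact permutation p = 0.1, two-sided), and the highest 30 h value was just under the lowest of day 0.

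Parp1 fell further than the other genes that were lower. It encodes the main enzyme that attaches ADP-ribose chains to proteins at DNA breaks, and its cleavage is a classical mark of caspase activity (chromosome 1, 180568924 to 180601254, plus strand). It was at 461, 496 and 489 CPM at day 0 and at 191, 153 and 105 CPM at 30 h. All 30 h libraries were far below day 0, yet differed among themselves by 1.82-fold, with replicate 3 lowest. The level was 3.22-fold lower (log2 change -1.69 ± 0.20 SE, edgeR adjusted p = 0.000136), and the log2 change ranged from -2.17 to -1.29 over the 16 alternatives.

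Acin1 encodes acinus, a nuclear protein of RNA processing complexes that has been linked to chromatin condensation once caspases cut it (chromosome 14, 54642161 to 54686931, minus strand). It stood at 143, 159 and 154 CPM at day 0 and at 242, 203 and 138 CPM at 30 h. Replicates 1 and 2 at 30 h were above all day 0 libraries and replicate 3 was below them, and the gene did not pass (log2 change 0.35, 95% interval from -0.09 to 0.79, edgeR adjusted p = 0.126). Without 30 h replicate 3 it passed (log2 change 0.55, adjusted p = 0.000119), as it did after removal of the GC trend (0.81, adjusted p = 0.00292) and in DESeq2 (0.39, adjusted p = 0.0498). Scaled by library totals it stood at -0.13, and relative to the median of all genes at 0.45, as with TMM. Of its exon bases 4.40% were shared with 1700123O20Rik on the opposite strand, which had between 1052 and 1961 counts.

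**Figure D2:**
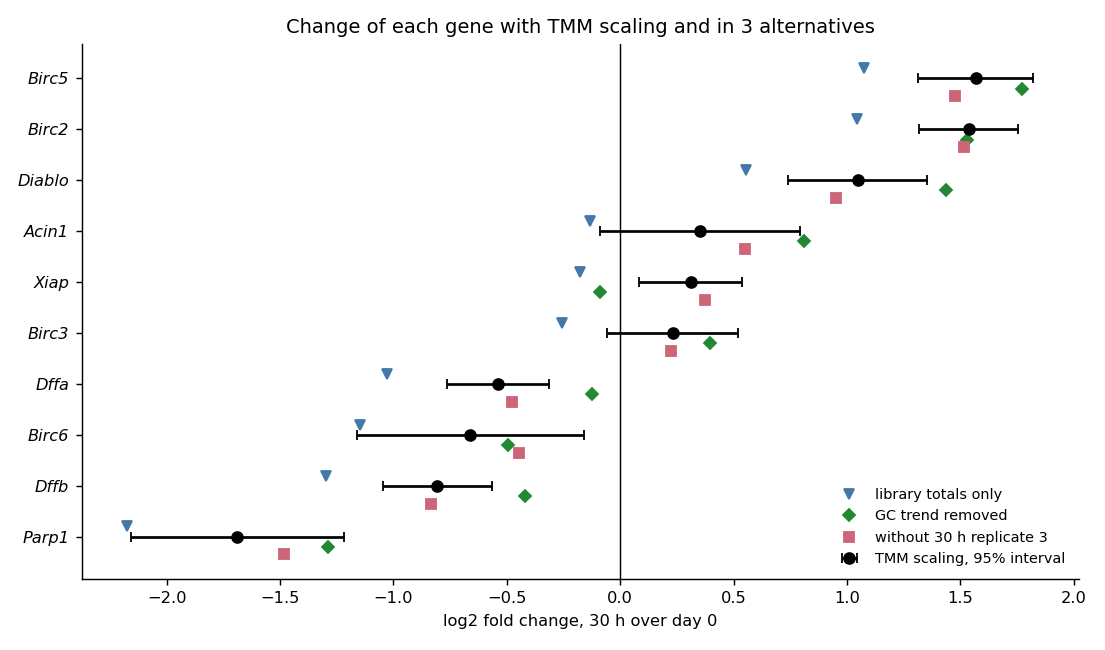
Log2 change at 30 h over day 0 of each gene with TMM scaling (black, with the 95% interval), with library totals only, after GC trend removal and with 30 h replicate 3 left out. Xiap, Birc3 and Acin1 lie at -0.18, -0.26 and -0.13 with library totals only and Xiap at -0.09 with the GC trend removed, while the other 7 stay on 1 side of 0. The median of all genes was -0.09 with TMM and -0.58 with library totals only.

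The 30 h libraries spread unevenly over the genes. The coefficient of variation at 30 h was 31.0% for Birc6, 28.9% for Parp1 and 27.0% for Acin1, and at most 13.1% for the other 7. At day 0 it was 10.5% for Birc6 and at most 6.12% for the others. Over all tested genes edgeR's common biological coefficient of variation was 5.28% at day 0 and 20.5% at 30 h. The test pools both groups into a shared dispersion per gene, so its SEs, intervals and p-values describe neither group's spread alone. Replicate 3 held the lowest 30 h value of 5 genes, those of Xiap, Birc6, Dffa, Acin1 and Parp1, and the highest of 4, those of Birc2, Birc5, Diablo and Dffb. Replicate 1 held the highest 30 h value of the same 5 genes, and the lowest of 4, those of Birc3, Birc5, Diablo and Dffb. Across all genes replicate 3 stood apart from the others of its group. Its correlation of log2 CPM was 0.979 with replicate 1 and 0.984 with replicate 2, against 0.987 between those. Without it 5 of the 10 genes were higher and 4 lower, Acin1 being added.

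Set per length, the order of the 10 transcripts was not the same in the groups. At day 0 the levels ran from Parp1 at 91.1 CPM per kb of exon through Birc5 (41.6), Dffa (16.2), Acin1 (14.5), Dffb (10.3), Xiap (7.08), Birc2 (4.95), Birc6 (3.73) and Birc3 (2.58) to Diablo at 1.44, and no neighbours in this order overlapped across their 3 libraries. At 30 h Birc5 was first, at 123 CPM per kb, and Parp1 second, at 28.3 CPM per kb. Parp1 overlapped with Acin1 (18.4), and Acin1 with Birc2 (14.4). Dffa (11.1), Xiap (8.77) and Dffb (5.87) followed, each apart from its neighbours. Birc3 (3.03), Diablo (2.98) and Birc6 (2.36) came last and overlapped as neighbours. With the length of the longest transcript in place of all exons, 8 genes at day 0 and 6 at 30 h kept their place.

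**Figure D3:**
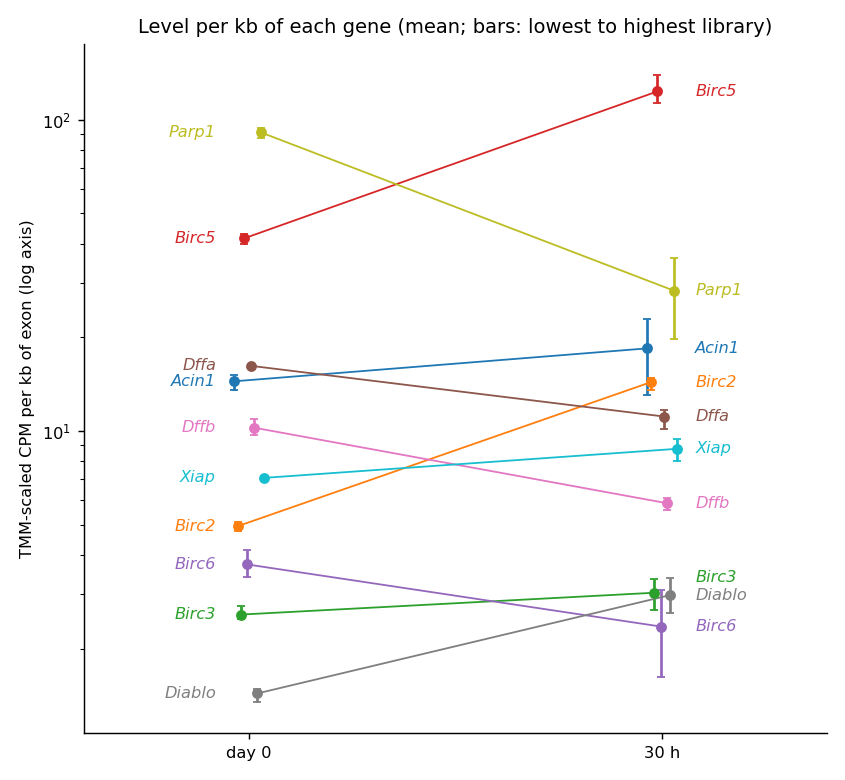
Mean TMM-scaled CPM per kb of exon of each gene at day 0 and 30 h on a log axis; bars run from the lowest to the highest library. Parp1 and Birc5 exchange the first place, from 91.1 and 41.6 CPM per kb at day 0 to 28.3 and 123 at 30 h.

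The following counts of related lists stand beside 34.4% higher, 40.1% lower and a median log2 change of -0.09 over all tested genes. Of 10 genes of caspases and the apoptosome, edgeR called 0 higher (1 at an unadjusted p below 0.05, 1 in DESeq2 and 0 in limma-trend) and 2 lower (20% of the list), with a median log2 change of 0.08. Without 30 h replicate 3, 3 were higher, and scaling by totals left 6 lower. Among those lower was Fadd, the adaptor of death receptors. Fadd was at 32.6 ± 1.04 CPM at day 0 and 23.8 ± 2.16 CPM at 30 h (SD, n = 3 each; edgeR adjusted p = 0.00486), a call that did not hold once the GC trend was taken out (adjusted p = 0.439). Over the 5 within-library ratios compared, of which 4 are reported here, the adjusted p was 0.1 for each (exact permutation test).

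**Figure D4:**
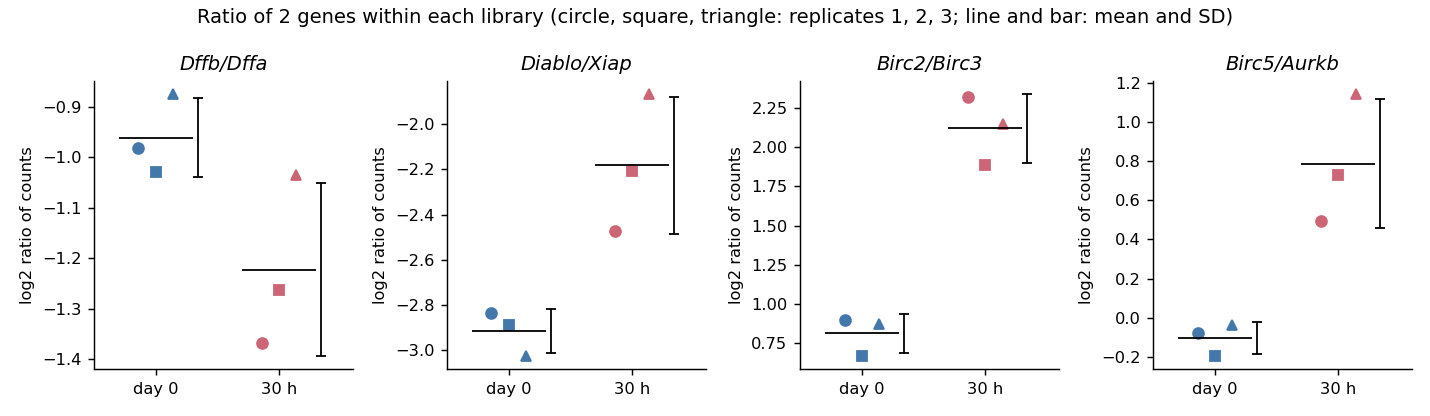
Log2 ratio of the counts of 2 genes within each library, day 0 and 30 h, for 4 pairs; lines are means and bars SDs. No pair overlaps between the groups: Dffb/Dffa is lower at 30 h, and Diablo/Xiap, Birc2/Birc3 and Birc5/Aurkb are higher.

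All 8 genes of the chromosomal passenger complex and its docking sites were higher and 0 lower (0 at an unadjusted p, in DESeq2 and in limma-trend), with a median log2 change of 1.04, where 34.4% of all tested genes were higher. With scaling by totals 4 passed. Aurkb, the kinase of the complex, was at 150, 156 and 150 CPM at day 0 and at 273, 242 and 214 CPM at 30 h (log2 change 0.68 ± 0.11 SE, edgeR adjusted p = 0.00076). It was no longer past the threshold with totals only (log2 change 0.19, adjusted p = 0.17). Incenp, the scaffold, rose 2.40-fold and Cdca8, which encodes borealin, 1.77-fold, the latter not past the threshold with totals only (adjusted p = 0.0525). Sgo1, the shugoshin that protects centromeric cohesion, went from 41.6 ± 0.887 to 173 ± 4.99 CPM (SD, n = 3 each). The ratio of Birc5 to Aurkb counts was 0.949, 0.874 and 0.976 at day 0 and 1.41, 1.66 and 2.21 at 30 h, higher in every 30 h library (1.85-fold, exact permutation p = 0.1, two-sided).

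Genes around the cIAP proteins in NF-kappaB signalling gave 13 higher and 4 lower of 19 (68.4% and 21.1%, against 34.4% and 40.1% of all tested genes; median log2 change 0.45), and 6 higher with scaling by totals only. Traf1, an adaptor that binds cIAPs, went from 7, 10 and 4 counts to 23, 29 and 20 counts (edgeR adjusted p = 0.000234). Nfkb1, which encodes an NF-kappaB subunit, fell 2.04-fold, from 113 ± 3.91 to 55.1 ± 11.4 CPM (SD, n = 3 each; edgeR adjusted p = 0.000492). Rbck1, a subunit of the linear ubiquitin ligase and the most abundant gene of this list per length, did not pass (159 ± 1.64 and 148 ± 15.0 CPM, SD, n = 3 each, edgeR adjusted p = 0.389), but was higher with the GC trend removed (log2 change 0.79). Among other IAPs and IAP antagonists 8 of 10 could be tested, with 3 higher and 3 lower (37.5% each; median log2 change 0.02). Xaf1, whose product binds XIAP, rose 13.7-fold, from 0.848, 1.27 and 0.910 CPM to 12.3, 12.5 and 16.9 CPM (edgeR adjusted p = 3.76e-06). Sept4, a septin gene with an isoform that antagonises XIAP, fell 3.97-fold (edgeR adjusted p = 0.00017). Htra2, a mitochondrial protease that also binds IAPs, did not pass (137 ± 4.63 and 122 ± 2.31 CPM, SD, n = 3 each, edgeR adjusted p = 0.0969), yet removal of the GC trend put its log2 change at 0.71. Reads of the near-identical Naip genes in this list cannot be assigned with certainty.

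The nucleases other than Dffb went both ways. Of 11 genes of death and clearance nucleases and proteins with the CIDE domain that Dffa and Dffb also carry, 8 could be tested, with 2 higher and 4 lower (25% and 50%; median log2 change -0.14), or 4 and 2 with the GC trend removed. Dnase2a, the acid nuclease of lysosomes that digests engulfed DNA, was at 19.9, 20.7 and 21.6 CPM at day 0 and at 135, 140 and 136 CPM at 30 h (6.62-fold, edgeR adjusted p = 5.5e-07). Dnase1l3, a secreted nuclease, had 83, 81 and 59 counts at day 0 and 0, 4 and 0 at 30 h (edgeR adjusted p = 0.000251). Aifm1, a mitochondrial flavoprotein that can enter the nucleus in cell death and the most abundant of these per length at day 0 but not at 30 h, fell 1.29-fold (edgeR adjusted p = 0.0117), but not after removal of the GC trend (adjusted p = 0.151).

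Other known caspase cleavage targets were 7 higher and 11 lower of 24 (median log2 change -0.26), so 29.2% were higher and 45.8% lower, against 34.4% and 40.1% of all tested genes. Rb1, the retinoblastoma gene, rose 7.35-fold, with 269, 214 and 130 CPM in the 30 h libraries after 26.3, 28.6 and 28.5 CPM at day 0 (edgeR adjusted p = 2.56e-05). Satb1, a chromatin organiser, fell 4.54-fold (edgeR adjusted p = 3.65e-05). Gata1, the central erythroid transcription factor and the most abundant target per length at 30 h but not at day 0, was 2.52-fold higher (edgeR adjusted p = 1.48e-05).

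Relatives of Parp1 went both ways. Of 19 genes of the PARP family and of ADP-ribose turnover, 9 were higher and 4 lower (47.4% and 21.1%; median log2 change 0.35), while totals scaling gave 8 lower and upper-quartile scaling 7. Parp9, a partner of the ubiquitin ligase DTX3L, rose 7.52-fold, from 17.3 ± 0.942 to 130 ± 17.2 CPM (SD, n = 3 each; edgeR adjusted p = 1.22e-06). Lig3, the DNA ligase of single-strand break repair, was at 83.5, 86.0 and 89.0 CPM at day 0 and at 37.8, 27.7 and 18.4 CPM at 30 h, a 3.07-fold fall (edgeR adjusted p = 0.000342). Adprhl2, which removes ADP-ribose from serine and was the most abundant here per length at day 0 but not at 30 h, did not pass (68.9 ± 1.29 and 61.7 ± 4.12 CPM, SD, n = 3 each, edgeR adjusted p = 0.155), and its log2 change was 0.54 with the GC trend removed. Partners of acinus in RNA processing, the ASAP and PSAP complexes and the exon junction complex, gave 1 higher and 4 lower of 9 (11.1% and 44.4%; median log2 change -0.11). The higher gene was Magoh, an exon junction subunit, at 137, 127 and 146 CPM at day 0 and 158, 172 and 253 CPM at 30 h (edgeR adjusted p = 0.0324). Leaving out day 0 replicate 1, 2 or 3 ended the call (adjusted p = 0.0889, 0.117 and 0.0645), as did scaling by totals, and without 30 h replicate 3 the list had 3 higher. Its near copy Magohb fell 1.57-fold (edgeR adjusted p = 0.000752), and reads of that pair may not be separated with certainty.

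**Figure D5:**
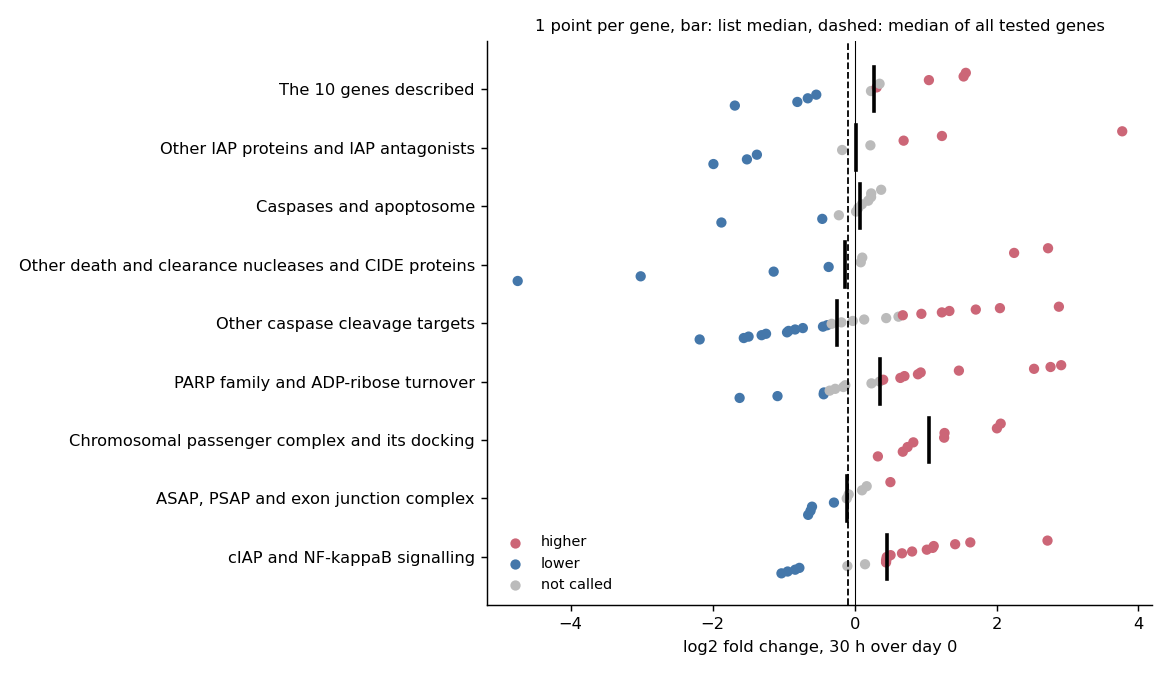
Log2 change at 30 h over day 0 of the 10 genes and of the tested genes of 8 related lists, 1 point per gene, coloured by the edgeR call; the bar is the list median and the dashed line the median of all tested genes, -0.09. The 8 genes of the chromosomal passenger list all lie above 0, and the other lists hold genes called in both directions, except the caspase list, with 2 lower and none higher.

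The genes nearest to Birc5 and Parp1 in pattern were sought among 9124 protein-coding genes with a mean of at least 10 CPM, by the root mean square difference of log2 CPM centred on each gene's mean over the 6 libraries. For Birc5 they were Pnrc2, at a difference of 0.03, and Acot8, at 0.04. Pnrc2 went from a mean of 106 to 309 CPM and Acot8 from 14.7 to 43.1 CPM. For Parp1 they were Usp36, at 0.03, with means of 59.6 and 18.6 CPM, and Notch2, at 0.06, with means of 70.4 and 21.0 CPM. With 2 groups and 6 libraries many genes share such a pattern, and the measure says nothing of function.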

How the data were processed

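Total RNA had been purified with a Qiagen RNeasy kit, per the labels' protocols. Each deposited file gives 1 library's counts, whole reads per Ensembl gene ID as the authors made them. Tools named in the submitters' processing notes are cutadapt 1.13, STAR, HTSeq 0.6.1p1 and DESeq2, with build mm10; settings and strand are not given in the sources used here. Of 54232 gene IDs, 54165 matched GENCODE M21 on the same assembly. Promoters came from RefSeq GRCm38.p6 and matched all 10 genes.

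Genes were kept by filterByExpr, scaled by TMM (factors from 0.82 to 1.19) and tested with edgeR 4.0.16 (R 4.3.3, robust quasi-likelihood F test, Benjamini-Hochberg over 16150 genes, threshold 0.05). SEs were derived from F. The fit was first tested on simulated data. It called 21.7% of 63 genes changed 1.5-fold, 65.2% of 69 changed 2-fold and 98.5% of 68 changed 4-fold. Of 15755 genes tested there, 14 unchanged ones were called. A gene that did not pass may therefore still have changed. The log2 CPM used a prior count of 2, and ratios added 0.5 to each count. Alternatives used DESeq2 1.42.0, limma 3.58.1, other scalings, filters, a replicate block, GC trends and left-out libraries.

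The genes, lists and tests were chosen with earlier results of these data known. In each list the largest rise, the largest fall and the most abundant gene per kb, by the mean over both groups, are named, with Aurkb for a ratio; 1 gene that this rule names, and its ratio, are not reported here; Incenp, Cdca8 and Fadd were named after their values were seen. No 2 libraries of a group agreed within sampling noise (chi-square statistics of 4.02 to 88.6 times their degrees of freedom), and same-numbered libraries did not deviate together (correlations of -0.105, 0.105 and -0.029).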

Additional observations from a re-analysis of the deposited data

How the results depend on the processing

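Over 16 alternatives, Birc2, Birc5, Diablo, Dffb and Parp1 kept direction and call. With library totals only the median of all genes was -0.58, and relative to it Xiap, Birc3 and Acin1 were at 0.40, 0.32 and 0.45, as with TMM. Their log2 changes with totals only were -0.18, -0.26 and -0.13. With the GC trend removed those of Xiap, Htra2, Adprhl2 and Rbck1 were -0.0892, 0.71, 0.54 and 0.79, and with the replicate block as well -0.10, 0.71, 0.53 and 0.78; only the last 3 genes passed there, and the cause was not tested. GC correction left 5 of the 10 genes higher and 2 lower, against 4 and 4, and between 3 and 5 were higher and between 3 and 4 lower when 1 library was left out.

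Counts over lists moved by more than 1.5 times as follows, with the cause not tested. With totals only, 5 IAP-related, 6 caspase and 8 PARP genes were lower, and 4 passenger complex, 0 acinus partner and 6 NF-kappaB genes higher. With upper-quartile scaling 7 PARP genes were lower and 0 acinus partners higher, the latter also with no filter. One caspase gene (1) was higher with DESeq2 size factors, with a minimum of 1 CPM in 3 libraries and in DESeq2. With the GC trend removed, 5 IAP-related, 2 caspase, 4 nuclease and 2 acinus partner genes were higher, and 1 caspase, 2 nuclease, 1 acinus partner and 2 NF-kappaB genes lower; with the replicate block added these were 5, 1, 4 and 2 higher and 1, 2, 1 and 2 lower. With 1 library left out, between 0 and 3 caspase genes and between 0 and 3 acinus partners were higher.

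The replicate block alone gave 3 of the 10 genes higher and 4 lower, Xiap being lost (adjusted p = 0.0537), and 5254 genes higher and 6277 lower in all, against 5553 and 6483. The check given with the processing showed no pairing of the libraries by number, but it cannot exclude one. The block fit is 1 of the 16 alternatives. With 1 library left out the 4 reported ratios kept their direction, for Dffb to Dffa between -0.35 and -0.19 and for Birc2 to Birc3 between 1.21 and 1.42 on the log2 scale. All calls higher were 46.1% of calls with TMM, 29.1% with totals only, 40.6% with upper-quartile scaling and 56.1% with the GC trend removed, where the median log2 change of all genes was 0.18. With the longest transcript as length, 8 genes at day 0 and 6 at 30 h kept their place in the order of levels. The smallest count behind a member was 243, for Birc3.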

Other observations

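Lig3, which was noticed after the values were seen, ranked 5 among 9124 protein-coding genes by nearness of pattern to Parp1, with a root mean square difference of 0.06 on the log2 scale over 6 libraries. Both were lowest in 30 h replicate 3, at 105 CPM for Parp1 and 18.4 CPM for Lig3. Nearness was measured over these same libraries, so a shared lowest library adds nothing to it. Replicate 3 also held the lowest 30 h value of 5 of the 10 genes.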
